A study of Mus musculus with 8 samples.

Results

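The resistin family genes of the mouse were followed here in leukocytes from arthritic paw joints: Retn (resistin), Retnlg (resistin-like gamma) and Retnla (resistin-like alpha, also called RELMα or FIZZ1). The members were the listed family genes with a row in both deposited UMI tables, and all 3 were found, among 28434 gene rows of which 16625 held at least 1 UMI in the cells kept. A UMI is 1 captured RNA molecule read at its 3′ end, so levels of different genes can be compared without a correction for length. The fourth mouse gene of the family, Retnlb (resistin-like beta), was not a listed member and is given only where it bears on them.

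C57BL/6 mice aged 10 weeks were made arthritic with 3 doses of K/BxN serum (day 0, day 2, day 9), which transfers arthritis through autoantibodies, and on day 12 each was given bone marrow monocytes of arthritic donors intravenously. In the Mono+MCTR3 group (n = 4 mice) these monocytes had been kept for 90 min with 1 nM MCTR3, a lipid mediator that carries a cysteinyl group and derives from docosahexaenoic acid. In the Mono group (n = 4 mice) they had been kept with vehicle (DPBS with ethanol). All 8 recipients were arthritic and carried transferred monocytes, nothing in the files marks the transferred cells, and joint cells sorted for CD45 were profiled on day 22.

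Barcodes with 250 to 3000 genes, 500 or more UMIs and a mitochondrial share of no more than 5% were kept, which left 10256 of 10538, 5015 from Mono+MCTR3 and 5241 from Mono mice. A mouse gave 758 to 1913 cells in the Mono+MCTR3 group and 1153 to 1578 in the Mono group, with a median of 1753 to 2428 and of 1685.5 to 2283.5 UMIs per cell. Pairs of mice shared 0 to 7 cell barcodes. Clustering without the 4 family genes gave 15 clusters. Of these, 6 held neutrophils (6946 cells, with 11 to 14 of 14 neutrophil markers detected in each), 4 held lymphocytes (2803 B-cell-like, T-cell-like and NK-like cells) and 2 held mononuclear phagocytes (336 macrophage-like and 47 nonclassical-monocyte-like cells). The macrophage-like cluster was led by F13a1, Ms4a6c, S100a4 and C1qb, and its second-best class was classical monocyte. With finer clusters (resolution 1.0), 166 cells scored as classical monocytes and 77, led by C1qb and C1qc, as macrophages. The other clusters held 77 cells that scored as plasmacytoid dendritic cells but were led by muscle genes, 27 mast-cell-or-basophil-like and 20 fibroblast-like cells. Globin genes led the Jaml+ Ccl6+ cluster through 5 of its 2002 cells, which held 99.5% of its globin UMIs. The mononuclear cells numbered 36, 106, 11 and 7 in the Mono+MCTR3 mice, against 46, 34, 56 and 87 in the Mono mice.

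Resistin family proteins are small secreted proteins rich in cysteine. In the mouse, resistin was first described as a product of adipocytes, RELMα is made by macrophages after IL-4 or IL-13 signalling through STAT6, and RELMγ is made in bone marrow and by neutrophils. Neutrophils mature through an order of granule genes, with primary granule proteins made first, secondary granule proteins such as lactoferrin (Ltf) and cathelicidin (Camp) next, and tertiary granule proteins such as gelatinase (Mmp9) late.

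In GRCm38 (GENCODE annotation) Retn lies on chromosome 8, from 3655770 to 3660110, and has 5 exons. Retnlb (48816856 to 48818892), Retnla (48842551 to 48844461) and Retnlg (48872621 to 48874496) lie side by side on chromosome 16, each with 4 exons and all on the plus strand. The span from Retnlb to Retnlg measured 57641 bases and held these 3 genes alone. The transcripts of Retnlg and Retnla were 82.0% identical over an alignment of 605 bases, with a longest shared run of 49 bases, and of 21 bases within the last 300. For Retnlg and Retnlb the longest shared run in the last 300 bases was 26.

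The 250 bases before each member's start in RefSeq (GRCm38.p6, plus strand) are shown. The members, although neighbours or relatives, differed in the clusters where they were highest. For Retnla that cluster rests on 161 UMIs in 3 macrophage-like cells of 1 mouse. All 3 members matched the RefSeq table by symbol. Capitals mark matches, on either strand, to the STAT6 pattern TTCNNNNGAA, the C/EBP pattern TTGCNNAA and the TATA box TATAAA. The windows are chr8:3655520-3655769 for Retn, chr16:48872358-48872607 for Retnlg and chr16:48842359-48842608 for Retnla.
Retn: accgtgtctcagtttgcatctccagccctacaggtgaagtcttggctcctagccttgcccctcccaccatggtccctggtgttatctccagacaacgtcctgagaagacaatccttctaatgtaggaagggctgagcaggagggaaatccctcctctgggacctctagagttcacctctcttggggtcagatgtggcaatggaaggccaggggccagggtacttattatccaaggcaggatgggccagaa
Retnlg: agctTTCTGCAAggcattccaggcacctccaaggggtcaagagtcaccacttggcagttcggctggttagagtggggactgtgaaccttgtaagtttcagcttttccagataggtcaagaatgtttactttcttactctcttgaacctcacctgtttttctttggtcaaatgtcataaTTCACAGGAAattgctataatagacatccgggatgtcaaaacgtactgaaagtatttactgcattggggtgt
Retnla: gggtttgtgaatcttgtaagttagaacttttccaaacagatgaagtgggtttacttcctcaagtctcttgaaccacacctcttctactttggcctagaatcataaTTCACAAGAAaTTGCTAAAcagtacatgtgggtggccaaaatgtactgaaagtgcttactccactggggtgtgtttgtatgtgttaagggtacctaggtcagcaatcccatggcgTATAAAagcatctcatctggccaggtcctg
The Retnlg and Retnla windows each held 1 STAT6 pattern, as TTCACAGGAA at 72 bases before the start and TTCACAAGAA at 145 bases before it. Each also held 1 C/EBP pattern, TTCTGCAA on the minus strand of Retnlg and TTGCTAAA in Retnla, with 1 base between it and the STAT6 pattern. Only the Retnla window held TATAAA, and the Retn window held none of the 3 patterns. Distances here are from the RefSeq starts. The GENCODE start of Retnla given above (48842551) lies inside the Retnla window. By that annotation, the TATAAA (48842579 to 48842584) falls within the gene. The Retnlg and Retnla windows aligned over 177 bases with 76.3% identity. Of 32851 RefSeq promoter windows of this length, 5.85% held the STAT6 pattern, 9.56% the C/EBP pattern and 12.4% TATAAA. A match describes the letters and does not show that a factor binds there.

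Retnlg was among the most abundant transcripts of these joints, Retn was rare and Retnla was nearly absent. Retnlg gave 632187 UMIs, which was 2.39% of all UMIs and gave it rank 5 among all genes. It was seen in 9469 of 10256 cells (92.3%), with up to 590 UMIs in 1 cell. Retn gave 800 UMIs in 681 cells (6.64%) and never more than 4 in a cell, with 576 of these cells holding 1. Retnla gave 188 UMIs in 10 cells. Retnlb gave 211 UMIs in 186 cells. Retnlg and Retn were seen in all 8 mice, and neutrophils held 98.3% and 97.8% of their UMIs. Retnlb lay to 99.5% in neutrophils, whereas neutrophils held 13.3% of the Retnla UMIs.

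Within neutrophils, mean Retnlg CPM was highest in the 2 clusters each led by a stefin gene and lowest in the Tnf+ Ccrl2+ cluster. Stefins (Stfa1, Stfa3, BC100530) are cysteine protease inhibitors that mark neutrophils after the secondary granule stage. Over 8 mice, Retnlg stood at 77757 ± 3993 CPM (mean ± SD) in the Stfa1+ BC100530+ cluster (1654 cells), where it was itself among the 10 leading genes. CPM is the number of UMIs of a gene scaled to a common total of UMIs for each mouse and cluster. The Stfa3+ Mmp8+ cluster (640 cells), which also holds secondary granule transcripts, had 67335 ± 4435 CPM. It was led by Stfa3, but its stage scores (mean scaled levels of the listed genes) were close, at 0.80 for secondary granule and 0.79 for stefin. Jaml+ Ccl6+ cells, the largest cluster (2002 cells), had 37109 ± 4065 CPM. Their best-scoring stage list was that of mature neutrophils (0.92), which was the second-best list of Ifit1+ Rsad2+ (0.97) and Tnf+ Ccrl2+ cells (0.96). Interferon-responsive Ifit1+ Rsad2+ cells (408 cells) had 27652 ± 3646 CPM. The Ltf+ Camp+ cluster (678 cells), which holds the least mature cells, had 14156 ± 2816 CPM, and the inflammatory Tnf+ Ccrl2+ cluster (1564 cells) had 12101 ± 2944 CPM.

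Each of the first 4 steps in that order held in 8 of 8 mice (exact paired permutation test, two-sided p = 0.0078, the smallest that 8 mice allow, and 0.0098 after Benjamini-Hochberg adjustment over the 5 neighbouring pairs). The last step did not, with Ltf+ Camp+ above Tnf+ Ccrl2+ in 5 of 8 mice (exact p = 0.203). The clusters were formed without the family genes but from genes that vary with them, so these tests describe how steady the order was from mouse to mouse. Counted as UMIs per cell rather than as a share of the cell's RNA, the order changed: Stfa3+ Mmp8+ cells had 217.7 and Stfa1+ BC100530+ cells 165.1 Retnlg UMIs per cell as means of the mice, and Ltf+ Camp+ cells (79.0) stood above Jaml+ Ccl6+ cells (57.8). Median total UMIs per cell were 5161 in Ltf+ Camp+, 3207 in Stfa3+ Mmp8+, 2076.5 in Stfa1+ BC100530+ and 1447 in Jaml+ Ccl6+ cells.

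**Figure D1:**
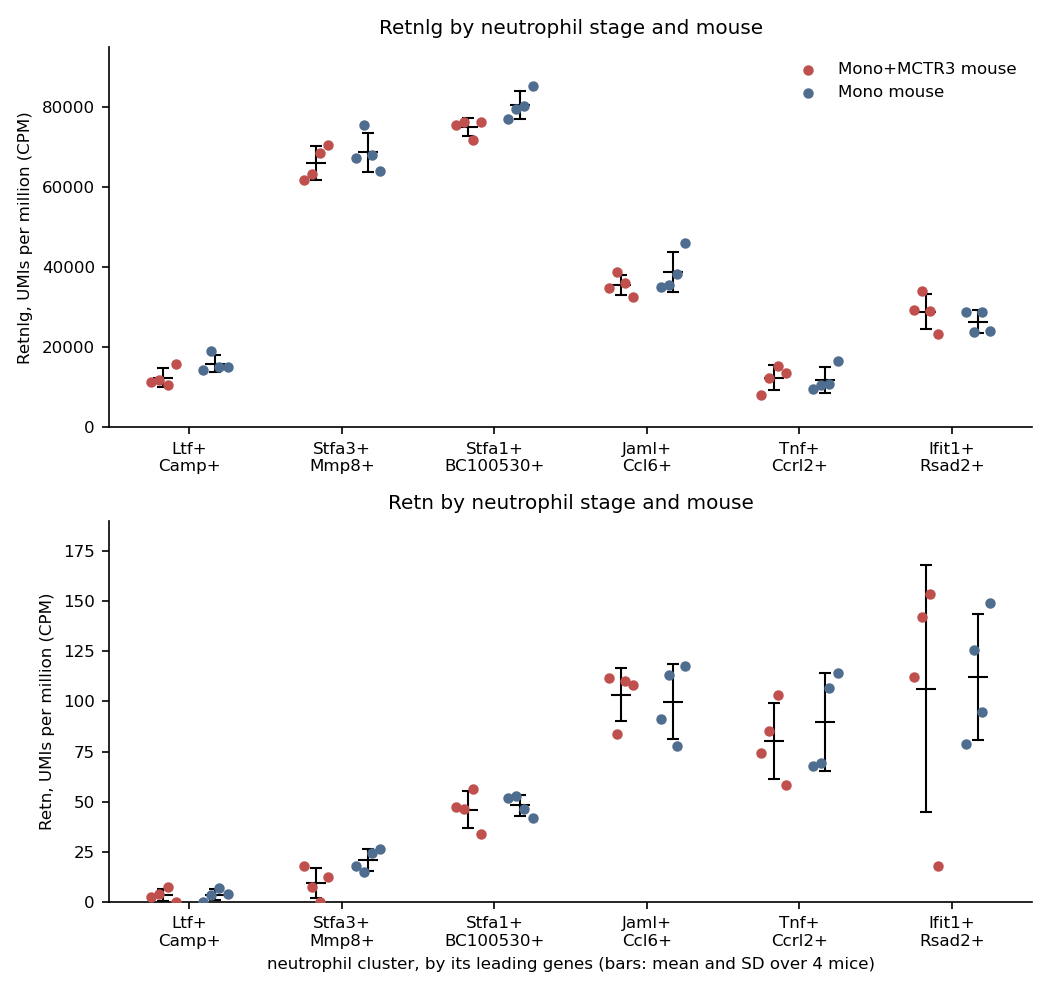
Retnlg (top) and Retn (bottom) in CPM of each neutrophil cluster, 1 point per mouse, Mono+MCTR3 on the left of each pair and Mono on the right, with mean and SD over 4 mice. Retnlg peaks in the 2 stefin-led clusters, whereas Retn is lowest in the Ltf+ Camp+ and Stfa3+ Mmp8+ clusters and highest in the Jaml+ Ccl6+, Tnf+ Ccrl2+ and Ifit1+ Rsad2+ clusters.

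Cells of a cluster differed widely in Retnlg. In Ltf+ Camp+ cells the 5th percentile, median and 95th percentile were 0.44, 12.1 and 48.1 Retnlg UMIs per 1000 UMIs of the cell, against 34.1, 77.2 and 118 in Stfa1+ BC100530+ cells. In Tnf+ Ccrl2+ cells they were 0, 5.82 and 36.2, and in Ifit1+ Rsad2+ cells 1.29, 15.97 and 74.1. With finer clusters (resolution 1.0) the Ltf+ Camp+ cells fell into 2 sets of 379 and 299 cells. The first, early precursors led by Fcnb, Chil3 and Elane (neutrophil elastase, a primary granule protease), had 6870 ± 2319 Retnlg CPM, and the second was part of a secondary granule cluster of 626 cells, with Ltf and Ngp among its leading genes, which had 43246 ± 4684 CPM (mean ± SD, n = 8 mice each). At this setting 2 stefin clusters again stood highest, at 81078 ± 4436 and 74386 ± 3847 CPM. The early precursors stood lowest among neutrophils, and a mature-scored cluster led by Dcn, Pmaip1 and Atf3 had 10951 ± 3287 CPM. The inflammatory cluster, with Ccrl2 and Tnf among its leading genes, had 21871 ± 3500 CPM and was not the lowest.

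Retn followed another course. It was lowest in Ltf+ Camp+ cells, at 3.42 ± 2.72 CPM, and stood at 15.1 ± 8.62 CPM in Stfa3+ Mmp8+ and 47.0 ± 6.98 CPM in Stfa1+ BC100530+ cells. Jaml+ Ccl6+ cells had 101.7 ± 15.1 CPM, Tnf+ Ccrl2+ cells 85.0 ± 20.9 CPM and Ifit1+ Rsad2+ cells 109 ± 45.3 CPM (SD, n = 8 mice). The test of neighbouring clusters for Retn was added after its values were seen. It separated Tnf+ Ccrl2+ from Stfa1+ BC100530+ cells (8 of 8 mice, exact p = 0.0078, adjusted 0.0195), Stfa1+ BC100530+ from Stfa3+ Mmp8+ cells (8 of 8 mice, with the same p) and Stfa3+ Mmp8+ from Ltf+ Camp+ cells (7 of 8 mice, exact p = 0.0234, adjusted 0.0391). The 3 highest clusters were not separated (exact p = 0.648 and 0.117). On UMIs per cell none of the 5 steps passed after adjustment, the smallest adjusted p being 0.0781 in the exact paired test. The Tnf+ Ccrl2+ cluster thus had the lowest mean Retnlg CPM of the 6, though not separated from Ltf+ Camp+ cells. For Retn it was among the 3 highest. Of the Retn UMIs 39.8% came from Jaml+ Ccl6+ cells, and of the Retnlg UMIs 43.6% came from Stfa1+ BC100530+ cells.

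In single cells Retn was sparse. It was seen in 264 of 2002 Jaml+ Ccl6+ cells (13.2%, at a median depth of 1447 UMIs), in 48 of 408 Ifit1+ Rsad2+ cells (11.8%) and in 15 of 678 Ltf+ Camp+ cells (2.21%, at a median depth of 5161 UMIs). Lymphocytes, which should lack it, held it in 13 of 2803 cells (0.464%, at a median depth of 2477 UMIs). Mononuclear cells held it in 3 of 383 (0.783%, at 6486 UMIs), and a share this close to that of lymphocytes is not read as expression. The source of these UMIs was not tested. Adipocytes, the source from which mouse resistin is best known, did not form a cluster: Adipoq gave 3 UMIs, Cfd 1, and Plin1, Cidec and Lep none. Lpl (247 UMIs) and Fabp4 (59 UMIs), which other cells also use, were the only adipocyte-list genes with more.

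Retnlb was found in neutrophils at low counts, with 24.9 CPM in Jaml+ Ccl6+ and 20.3 CPM in Stfa1+ BC100530+ cells (means of 8 mice). It had 13.6 CPM in Ifit1+ Rsad2+, 12.4 CPM in Stfa3+ Mmp8+, 8.63 CPM in Tnf+ Ccrl2+ and 1.56 CPM in Ltf+ Camp+ cells. None of its neighbouring clusters was separated after adjustment (smallest adjusted p = 0.0781, exact paired test, also added after the values were seen).

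Outside neutrophils Retnlg was found at a low level, with 1102 ± 303 CPM in lymphocytes and 499 ± 204 CPM in mononuclear cells (SD, n = 8 mice). Some Retnlg UMI was seen in 77.2% of lymphocytes and 92.2% of mononuclear cells, at median depths of 2477 and 6486 UMIs. Thinned to 1000 UMIs per cell, the share was 44.6 ± 12.4% in mononuclear cells of Mono+MCTR3 mice and 43.8 ± 5.73% in those of Mono mice. In lymphocytes it was 43.6 ± 9.78% in Mono+MCTR3 mice and 43.0 ± 3.76% in Mono mice (SD, n = 4 each). At this depth the mononuclear share stood near the lymphocyte share and is not read as expression. Thinned to 500 UMIs, it was 15.7 ± 18.1% in mononuclear cells and 26.9 ± 6.59% in lymphocytes of Mono+MCTR3 mice. In Mono mice it was 27.0 ± 2.60% and 27.1 ± 2.80%. S100a8, an abundant neutrophil transcript, was found beside Retnlg. Per 100 S100a8 UMIs, lymphocytes held 23.3 to 42.2 Retnlg UMIs over the 8 mice and mononuclear cells 16.4 to 35.5, and the neutrophils of a mouse, pooled, held 20.8 to 28.2. Among the neutrophil clusters the same ratio ran from 6.28 in Ltf+ Camp+ to 39.9 in Stfa1+ BC100530+ cells. The source of these molecules was not tested.

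**Figure D2:**
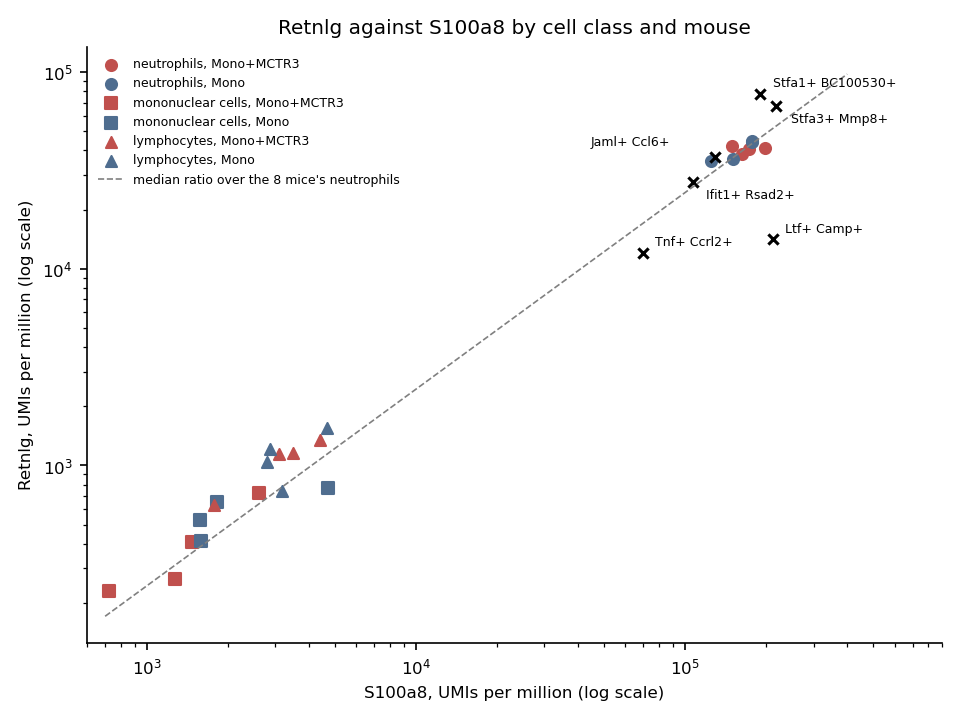
Retnlg against S100a8, both in CPM on log scales, 1 point per mouse for neutrophils, mononuclear cells and lymphocytes, and 1 cross per neutrophil cluster (mean of 8 mice). Lymphocytes and mononuclear cells lie near the dashed line of the neutrophils' median ratio, and the Ltf+ Camp+ cluster lies well below it.

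Between the groups, neither Retnlg nor Retn passed the test in all neutrophils pooled. Retnlg stood at 40898, 41032, 38318 and 42163 CPM in the Mono+MCTR3 mice, against 44439, 35247, 36202 and 44203 CPM in the Mono mice. The Mono+MCTR3 values lay inside the range of the Mono values. In the edgeR quasi-likelihood fit on UMIs summed per mouse the log2 fold change (Mono+MCTR3 over Mono) was 0.08 with a standard error of 0.16 (adjusted p = 0.992). The sign turned without Mono mouse 2 (-0.01) and when the 6 clusters were given equal weight (38353 ± 1146 CPM in Mono+MCTR3 and 40350 ± 1290 CPM in Mono mice, log2 ratio -0.07, exact permutation p = 0.0857). Of 5327 genes tested 0.0563% were called, that is 2 higher and 1 lower, and no member was among them.

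Retn stood at 49.7, 31.4, 62.0 and 53.9 CPM in neutrophils of the Mono+MCTR3 mice, against 47.5, 71.3, 55.0 and 49.7 CPM in the Mono mice. The groups overlapped, and mouse 2 of each group gave its extreme value, the lowest in Mono+MCTR3 and the highest in Mono. The log2 fold change was -0.14 with a standard error of 0.16 (edgeR adjusted p = 0.992), and it came to -0.05 without Mono mouse 2 and to -0.00 without Mono+MCTR3 mouse 2. For Retnlb it was -0.20 with a standard error of 0.23 (edgeR adjusted p = 0.992).

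By cluster, the log2 fold change of Retnlg between the groups was largest in Ltf+ Camp+ cells. It stood at 11384, 11905, 10476 and 15814 CPM in the Mono+MCTR3 mice, against 14400, 19130, 15109 and 15029 CPM in the Mono mice. Of the Mono+MCTR3 mice 3 lay below every Mono mouse, and mouse 4 lay above 3 of them. These values came from 81, 207, 79 and 19 cells of the Mono+MCTR3 mice, against 62, 54, 82 and 94 of the Mono mice. The cluster mixes early precursors with secondary granule cells, which differed in Retnlg at resolution 1.0. The part of that mix in the group difference was not tested. The log2 fold change was -0.35 with a standard error of 0.12, at an unadjusted p of 0.0119 and an edgeR adjusted p of 0.954 over 2376 genes. It remained negative when each mouse was left out in turn (-0.47 to -0.27).

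Stfa1+ BC100530+ cells were the ones in which the groups did not overlap. Retnlg stood at 75484, 76373, 71819 and 76302 CPM in the Mono+MCTR3 mice, against 76941, 79506, 80338 and 85292 CPM in the Mono mice. The means were 74995 ± 2155 CPM in Mono+MCTR3 and 80519 ± 3495 CPM in Mono mice, and the highest Mono+MCTR3 mouse lay just under the lowest Mono mouse. An exact permutation test of these levels gave p = 0.0286, the smallest that 4 against 4 mice allow, and 0.171 after adjustment over the 6 clusters compared. In the edgeR fit the log2 fold change was -0.07 with a standard error of 0.08 (adjusted p = 0.915). Of the 2030 genes tested there 2.56% had every Mono+MCTR3 mouse below every Mono mouse and 1.48% the reverse.

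In the other 4 clusters the log2 fold changes of Retnlg were -0.04 (Stfa3+ Mmp8+), -0.03 (Jaml+ Ccl6+), 0.12 (Tnf+ Ccrl2+) and 0.22 (Ifit1+ Rsad2+), with standard errors of 0.07 to 0.22 and edgeR adjusted p values of 0.866 to 0.992. In Jaml+ Ccl6+ cells the sign turned without Mono mouse 4 (0.10), Mono+MCTR3 mouse 3 (0.02) or Mono+MCTR3 mouse 4 (0.03). Retn could be fitted in 3 clusters, with log2 fold changes of 0.14 in Jaml+ Ccl6+, -0.01 in Stfa1+ BC100530+ and -0.09 in Tnf+ Ccrl2+ cells and adjusted p values of 0.925 or more in edgeR. In Stfa3+ Mmp8+ cells, where it was too low for the fit, Retn averaged 9.40 ± 7.63 CPM in Mono+MCTR3 mice and 20.8 ± 5.36 CPM in Mono mice (SD, n = 4 each, 31 UMIs in all, exact permutation p = 0.0571). By edgeR's quasi-likelihood test 0.0853% of the genes were called in Jaml+ Ccl6+ cells and 0.0% in each of the other 5 clusters, where 44 to 153 genes had an unadjusted p under 0.05 and the likelihood ratio test called 0 to 4. The group effect on Retnlg was not shown to differ between clusters: over 15 pairs of clusters, the smallest p for a difference was 0.0857 in an exact permutation test (0.514 after adjustment).

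The makeup of the neutrophils did not separate the groups at this number of mice. Stfa1+ BC100530+ cells, in which Retnlg was highest, made up 26.7 ± 6.99% of neutrophils in Mono+MCTR3 and 20.9 ± 8.13% in Mono mice (SD, n = 4 each, exact permutation p = 0.343). Tnf+ Ccrl2+ cells, in which its mean CPM was lowest, made up 19.4 ± 7.31% in Mono+MCTR3 and 25.6 ± 8.96% in Mono mice (exact permutation p = 0.286).

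**Figure D3:**
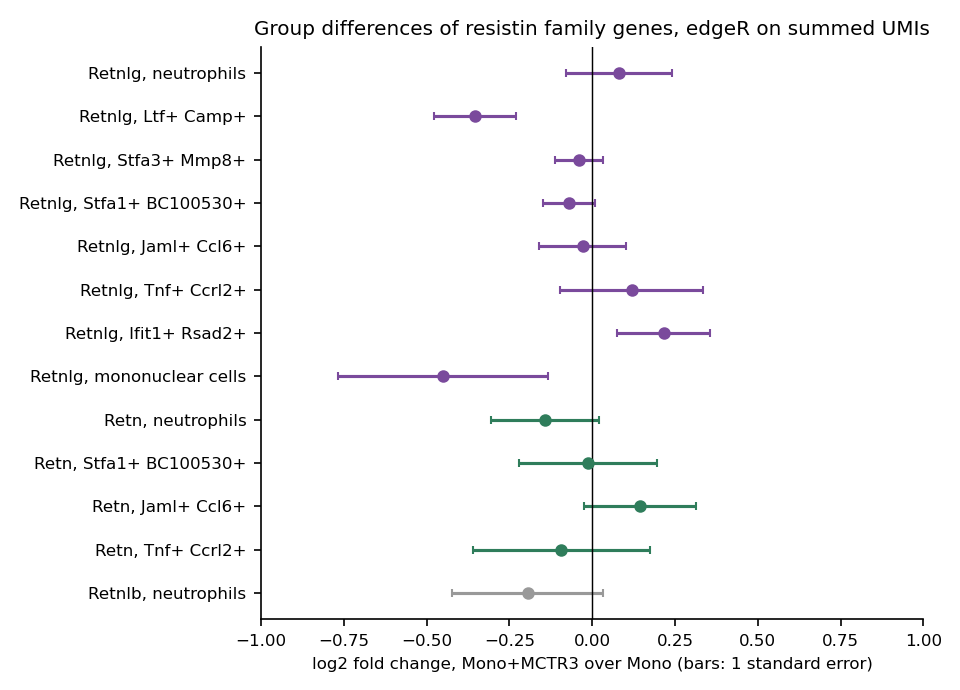
Log2 fold change of each family gene, Mono+MCTR3 over Mono, in neutrophils, in each neutrophil cluster and in mononuclear cells (edgeR on UMIs summed per mouse), with bars of 1 standard error. The Retnlg values lie between -0.45 and 0.22, and none of them passed the threshold.

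Retnlg in mononuclear cells is not read as expression, as given above. It stood at 408, 724, 266 and 230.2 CPM in the Mono+MCTR3 mice, against 773, 528, 412 and 650.3 CPM in the Mono mice. The groups overlapped, and the 2 lowest values came from the 11 and 7 cells of Mono+MCTR3 mice 3 and 4. The log2 fold change was -0.45 with a standard error of 0.32 (edgeR adjusted p = 0.615), and without Mono+MCTR3 mouse 2 it came to -0.97 (adjusted p = 0.163). S100a8 in the same cells stood at 1476, 2616, 1272 and 726 CPM in the Mono+MCTR3 mice, against 4702, 1579, 1588 and 1830 CPM in the Mono mice, and its part in the Retnlg values was not tested. Of 3219 genes tested 0.528% were called, 11 higher and 6 lower, without any family gene.

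The share of cells with a UMI of a member, thinned to 1000 UMIs per cell, did not pass a test either. The thinning left out 203 neutrophils of Mono+MCTR3 and 399 of Mono mice. Retn was then seen in 6.00 ± 1.75% of neutrophils in Mono+MCTR3 and 6.50 ± 0.921% in Mono mice (exact permutation p = 0.686), and unthinned in 9.42 ± 0.979% and 9.69 ± 0.570% of them, in the same order. Retnlg was seen in 97.0 ± 1.15% of thinned neutrophils in Mono+MCTR3 and 97.9 ± 0.971% in Mono mice (exact permutation p = 0.257). Of the 9 thinned comparisons of members and classes the smallest exact permutation p was 0.143, that of Retnla in neutrophils (0.0286 unthinned, and 0.257 after adjustment over 9).

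Retnla was held by 10 cells, all of them from Mono mice. No cell of the Mono+MCTR3 mice held a Retnla UMI, against 2, 1, 1 and 6 cells of Mono mice 1 to 4 with 14, 9, 1 and 164 UMIs. For Mono+MCTR3 this is 0 of 5015 cells (exact 95% interval 0 to 0.0735%), and for Mono 10 of 5241 cells (0.191%, exact 95% interval 0.0915 to 0.351%). Among mononuclear cells, the known source, 0 of 160 cells of Mono+MCTR3 mice held it, 106 of them from mouse 2, against 3 of 223 cells of Mono mice, all 3 from mouse 4. The intervals pool the cells of 4 mice and cover counting error only.

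One macrophage-like cell of Mono mouse 4 held 151 Retnla UMIs, 80.3% of the total. Among its 4739 UMIs it had 74 of H2-Aa and 161 of Cd74, which belong to antigen presentation by MHC class II, 1 of C1qb and none of C1qa, Mrc1, Folr2 or Lyve1. At resolution 1.0 this cell's class changed. Of the Retnla UMIs, 152 in 2 cells then lay in a cluster of 108 cells led by Siglech, Cd209a, Cox6a2 and Ccl17. That cluster scored as plasmacytoid dendritic cells, a class not counted as mononuclear here, and also had Clec10a and Mgl2 among its leading genes. The macrophage-like cluster led by C1qb kept 9 UMIs in 1 cell. Fcrls, a scavenger receptor gene of macrophages, had 9 UMIs in the cell with 151 of Retnla. It came next after Retnla among the genes higher in that cell than in the other mononuclear cells. A second cell of this mouse, with 9 Retnla UMIs, had another profile: 51 UMIs of C1qa, 63 of C1qb, 13 of Lyve1 and 7 of Folr2, which mark resident tissue macrophages, with 11 of Ccr2, the receptor of recruited monocytes, and 1 of H2-Aa. Another, with 1 Retnla UMI, had 142 of H2-Aa, 38 of Cd209a and 14 of Mgl2, which mark monocyte-derived dendritic cells.

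Of the remaining cells 5 lay in neutrophil clusters. A Stfa3+ Mmp8+ cell of Mono mouse 1 held 13 Retnla UMIs beside 851 of S100a8 and 118 of Camp, and an Ltf+ Camp+ cell of Mono mouse 2 held 9 beside 758 of S100a8 and 264 of Camp. Both showed 12 of 14 neutrophil markers, no C1qa or H2-Aa, and 35 and 151 UMIs of Retnlg, the gene with the most similar transcript. The other 3 were Jaml+ Ccl6+ cells with 1 Retnla UMI each, and a T-cell-like and a B-cell-like cell also held 1. None of the 10 was marked as a doublet. One more cell, from Mono mouse 3, held Retnla with at least 2 UMIs among the barcodes removed by the filter.

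**Figure D4:**
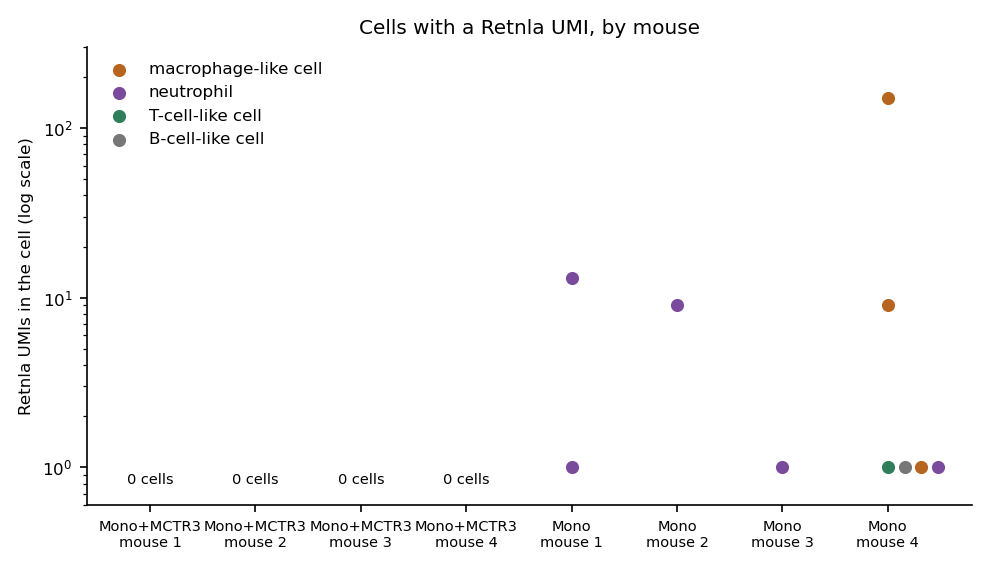
Retnla UMIs (log scale) in each of the 10 cells that held any, by mouse, coloured by the class of the cell, with Mono+MCTR3 mice on the left. One macrophage-like cell of Mono mouse 4 holds 151 of the 188 UMIs, and the 4 Mono+MCTR3 mice hold none.

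The share of cells with a Retnla UMI was 0% in Mono+MCTR3 and 0.193% in Mono mice as means over mice, at an exact permutation p of 0.0286, the smallest that 4 against 4 mice allow. This test over all cells was chosen after the values were seen and rests on 10 cells, 6 of which held 1 UMI. With at least 2 UMIs required it rested on 4 cells in 3 mice (exact permutation p = 0.143), and over all barcodes with at least 2 UMIs on 5 cells in 4 mice (p = 0.0286). Left out in turn, each Mono+MCTR3 mouse gave an exact permutation p of 0.0857 and each Mono mouse 0.0286. Of the 16625 genes with a UMI, 0.15% were seen in every Mono mouse and no Mono+MCTR3 mouse and 0.0301% the reverse. Of the 149 genes seen in 10 cells the values were 0.671%, which is Retnla itself, and 0.0%. Retnla was too rare for the filtered fit in mononuclear cells, where its CPM was 0 in all mice but Mono mouse 4 (292 CPM, exact permutation p = 1). Fitted without the filter on low counts, edgeR called it lower in Mono+MCTR3 (adjusted p = 1.5e-21), from 3 cells of 1 mouse. That fit called 2.31% of 12905 genes, counted in either direction. In neutrophils without that filter 0.353% of genes were called, Retnla again among them, from 5 cells.

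Eosinophils, another known source of family transcripts, were not a cluster of their own: Siglecf gave 99 UMIs, Il5ra 31, Ccr3 15, Ear1 15, Prg2 2 and Epx none.

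Genes whose level over the 15 clusters was most like that of each member were looked up among 4117 or 4118 genes with at least 500 UMIs (Pearson correlation of log2(CPM + 10), a description over clusters that share libraries and depth). For Retnlg these were Ceacam10 (r = 0.98), Scrg1 (0.98), S100a9 (0.97), 9830107B12Rik (0.97) and S100a8 (0.97). For Retn they included H2-Q10 (0.98), Dph3 (0.98), Gm17619 (0.97) and 4732465J04Rik (0.97). For Retnla they were C1qb (0.98), Pclaf (0.88), F13a1 (0.87), Lyz1 (0.81) and C1galt1c1 (0.79), which rests on 161 UMIs in 1 cluster. Retnlg and Retn shared none of these genes.

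Among proteins reported to bind members of the family, Cap1, a receptor for resistin in human monocytes, was expressed in all classes, at 106 CPM in neutrophils and 88.9 CPM in mononuclear cells. Tlr4 had 15.7 CPM in neutrophils and 9.88 CPM in mononuclear cells, and Btk had 20.6 CPM in neutrophils and 48.6 CPM in mononuclear cells. Dcn, a proteoglycan gene of fibroblasts, gave 2909 UMIs in 62 cells. Of these 5 genes 3 were tested in neutrophils and 2 in mononuclear cells, and none passed.

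Genes of IL-4 and IL-13 signalling were detected in mononuclear cells, with Jak1 at 68.7 CPM, Stat6 at 62.5 CPM, Il2rg at 48.1 CPM and Klf4 at 439 CPM. Of the 10 pathway genes 5 were tested in neutrophils and 6 in mononuclear cells, and none passed (median log2 fold changes -0.11 and -0.21, against 0.00 and -0.01 over all genes tested). Among 10 other genes that IL-4 raises in macrophages, Chil3 gave 23793 UMIs, but it was highest in the Ltf+ Camp+ neutrophils (4999 CPM) and stood at 1334.5 CPM in mononuclear cells. The next by UMIs were Egr2 (266 UMIs), Pdcd1lg2 (254) and Clec10a (246). None of the 3 tested in neutrophils or the 2 tested in mononuclear cells passed.

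Of 9 transcription factor genes of the granulocyte lineage or of the resistin promoter, Cebpb, which encodes C/EBPβ, was the most abundant. Its level, like that of Retn, was lowest in Ltf+ Camp+ cells and next in the 2 stefin-led clusters, with 883 CPM in Ltf+ Camp+, 2409 in Stfa3+ Mmp8+, 3930 in Stfa1+ BC100530+, 6478 in Jaml+ Ccl6+, 7638 in Ifit1+ Rsad2+ and 8754 CPM in Tnf+ Ccrl2+ cells. Spi1, which encodes PU.1, ran from 430.2 CPM in Ltf+ Camp+ to 828 CPM in Tnf+ Ccrl2+ cells. Cebpe, needed for secondary granule genes, was highest in Ltf+ Camp+ cells (404 CPM, against 25.6 CPM in Jaml+ Ccl6+ cells). Stat3 had 73.3 CPM in neutrophils. None of the 6 tested in neutrophils or the 5 tested in mononuclear cells passed.

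The last list held 10 granule and late neutrophil products. Lcn2 and Wfdc21, genes of secreted granule or antimicrobial proteins, were highest before the Retnlg peak, at 13659 and 8595 CPM in Ltf+ Camp+ cells, and Pglyrp1, which encodes a peptidoglycan-binding granule protein, was highest in Stfa3+ Mmp8+ cells (5098 CPM). Hp (haptoglobin) lay between 1710 CPM in Tnf+ Ccrl2+ and 2264 CPM in Jaml+ Ccl6+ cells. All 10 were tested in neutrophils, 8 with a positive log2 fold change (median 0.17, against 0.00 over all genes tested). In mononuclear cells 5 were tested, 0 with a positive log2 fold change (median -0.29, against -0.01 over all genes tested). None passed in either class. The nearest to the threshold was Pglyrp1 in mononuclear cells, with a log2 fold change of -1.08 and a standard error of 0.25 (edgeR adjusted p = 0.07). Pglyrp1 stood at 194 CPM there, near its 157 CPM in lymphocytes, against 3819 CPM in neutrophils. Its mononuclear level is therefore not read as expression, and the source of these UMIs was not tested.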

How the data were processed

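Joint cells sorted for CD45 were profiled by droplet single-cell RNA sequencing (10x Chromium, 3′ ends). The authors aligned reads to GRCm38 with Cell Ranger and deposited 1 table of UMI counts per group, aggregated over 4 mice. Tool versions: not given in the sources used here. Mice were told apart by barcode suffix, and the labels do not say which suffix is which mouse. Each suffix was taken as 1 replicate.

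Barcodes with 250 to 3000 genes, 500 or more UMIs and up to 5% mitochondrial UMIs were clustered in Seurat 5.3.0 (R 4.3.3, 2000 variable genes without the 4 family genes, 20 components, resolution 0.5) and named from marker lists. Scrublet (scanpy 1.11.5) marked 52 cells (0.507%) as doublets, which were kept. UMIs summed per mouse were tested with edgeR 4.0.16 (filterByExpr, TMM, quasi-likelihood test, Benjamini-Hochberg adjustment over all genes tested, threshold 0.05) and the fit was tested on simulated data. Single values were compared by exact two-sided permutation tests computed with numpy 2.4.6. Exact intervals for shares of cells were computed with scipy 1.17.1, and transcripts were aligned with Biopython 1.88. A mouse had 1731045 to 6009009 UMIs in Mono+MCTR3 and 2602412 to 3832301 in Mono, which limits rare genes.

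All 3 members and Retnlb are named, and up to 4 genes per list, those with the most UMIs, beside the 5 genes most like each member, of which 1 is not reported here. Members and lists were chosen with earlier results of these data known. Alternatives were DESeq2 1.42.0, the edgeR likelihood ratio test, other filters and clusterings, and each mouse left out.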

Additional observations from a re-analysis of the deposited data

Results flagged for a closer look

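Among 36 groups of 4 mice (the levels of the family genes by class), 4 held a mouse far from the other 3, where chance gives about 1 in 20 groups. Retnlg stood at 16588 CPM in Tnf+ Ccrl2+ cells of Mono mouse 4, against 9541 to 10710 CPM in the other Mono mice. Retnlg stood at 19130 CPM in Ltf+ Camp+ cells of Mono mouse 2, against 14400 to 15109 CPM in the other Mono mice. Retn stood at 83.6 CPM in Jaml+ Ccl6+ cells of Mono+MCTR3 mouse 2, against 108 to 112 CPM in the other Mono+MCTR3 mice. Retnla stood at 292 CPM in mononuclear cells of Mono mouse 4, and at 0 in the other Mono mice.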

How the results depend on the processing

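Of the family genes, Retnla alone was called under any alternative, with no filter on low counts (log2 fold change -7.82 in mononuclear cells, adjusted p = 1.5e-21, edgeR), and its difference of mean CPM (-72.9) ran from -97.2 to 0 with each mouse left out, and was -6.48 at resolution 1.0 and 0 with the family genes among the variable genes. Genes called in neutrophils numbered 3, but 0 with 10 components or no upper limit on genes per cell, 9 with the likelihood ratio test, 47 with no filter on low counts and 0 to 6 with each mouse left out. Genes called in mononuclear cells numbered 17, but 0 with 10 or 30 components, no upper limit on genes or up to 10% mitochondrial UMIs, 2 at resolution 1.0, 63 with DESeq2, 85 with the family genes among the variable genes, 117 with the likelihood ratio test, 298 with no filter on low counts and 0 to 25 with each mouse left out. The causes were not tested.

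Retnlg in neutrophils turned to -0.073 with equal weight per cluster and ran from -0.010 (without Mono mouse 2) to 0.20 with each mouse left out, and in Jaml+ Ccl6+ cells from -0.12 to 0.10. On UMIs per cell, the log2 ratio was -0.40 for Stfa1+ BC100530+ over Stfa3+ Mmp8+, -0.94 for Ifit1+ Rsad2+ over Ltf+ Camp+ and 2.19 for Ltf+ Camp+ over Tnf+ Ccrl2+ cells. The share of cells with Retnla differed by -0.0751 points with at least 2 UMIs, and by -0.236 to -0.107 with each mouse left out. The Retnlg share turned to -0.213 points in lymphocytes thinned to 500 UMIs, and in mononuclear cells to -11.3 thinned to 500 UMIs and -6.91 unthinned. Alternatives for the mononuclear calls, Retnlb and the Retnla share were chosen after seeing the data. No paired analysis was possible because the labels give the groups no shared replicate numbers.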
